A study of Mus musculus with 11 samples.

Results

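The genes described here encode 9 regulators of fat cell formation and fat cell function in the mouse, namely Cebpb, Cebpd, Zfp423, Pparg, Cebpa, Klf15, Srebf1, Prdm16 and Ppargc1a. They were chosen by gene symbol from the 22600 genes of the merged count table, with earlier results of these data known. Each symbol matched 1 row. RNA came from the whole distal tibia, cut at the junction of tibia and fibula and powdered, so that bone, marrow and marrow fat were read together. Each library came from 1 mouse, 4 of them Control (genotype label BMAd-WT) and 7 BMAd-DTA. Every mouse was C57BL6/SJL, 24 weeks old by its label, and fed ad libitum. All animals, controls included, carried Osterix-FLPo and FAC, a Cre cassette within the endogenous Adipoq gene that FLPo turns into its reading direction. Controls therefore also had the Cre allele at Adipoq. In BMAd-DTA mice, Cre removes a STOP cassette at Rosa26, and the cells that carry out this step make diphtheria toxin A and die. As a model of bone marrow adipocyte (BMAd) loss it has limits that the study describes, since the Cre acts more fully with age and also reaches a small subset of stromal precursors that express Adipoq. The reads of the toxin itself were not analysed here.

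Fat cells form through a relay of transcription factors. C/EBP beta (Cebpb) and C/EBP delta (Cebpd) are induced first, and they raise PPAR gamma (Pparg) and C/EBP alpha (Cebpa), which keep each other on and switch on the genes of lipid storage. ZFP423 marks cells committed to the fat lineage, KLF15 supports Pparg and glucose uptake, SREBP-1 (Srebf1) drives fatty acid synthesis, and PRDM16 and PGC-1 alpha (Ppargc1a) belong to thermogenic fat and mitochondrial biogenesis. Several of these genes have other uses in bone marrow and muscle. C/EBP alpha, beta and delta act in granulocytes and macrophages, PRDM16 in hematopoietic stem cells, and KLF15 and PGC-1 alpha in skeletal muscle.

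In distal tibiae the 9 regulators were all detected, and after adjustment none differed between genotypes beyond the spread between mice. At an adjusted p under 0.05, edgeR's quasi-likelihood test called 0 of the 9 and 0.0788% of the 16496 genes tested. DESeq2, which called 5.42% of its genes, and limma-voom, which called 0.121%, also called 0 of the 9. Without adjustment, 3 of 9 genes (Pparg, Zfp423 and Ppargc1a) had a p under 0.05, each with the lower mean in BMAd-DTA, a threshold that 16.4% of all genes tested passed and at which 8.53% were lower. The log2 fold change, given throughout as BMAd-DTA minus Control, was below 0 for 8 of the 9 genes and for 49.6% of all genes. Their median log2 fold change was -0.12, against 0.0018 over all genes. No gene of the 9 separated the groups without overlap, which 2.81% of all genes did.

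The libraries held 16969529 to 18637663 counts on genes, a narrow range of depth. Whole distal tibiae carried varying amounts of skeletal muscle. The summed level of 22 muscle markers lay between 68.1 and 1825 CPM in Controls and between 75.2 and 1413 CPM in BMAd-DTA mice, and 20 of the 21 tested had the lower fitted mean in BMAd-DTA, none passing the adjusted test. Of the tested markers Myh1 and Mb stood at 0 in at least 1 library. CPM is the usual depth-scaled count of a gene, here on library sizes adjusted by the trimmed mean of M-values (TMM). All 12 osteoblast and osteocyte markers had the higher mean in BMAd-DTA (median log2 fold change 1.06). All 12 had an unadjusted p under 0.05 in edgeR, and DESeq2 called 9 of them higher (Alpl at an adjusted p of 3.39e-09). In edgeR only Alpl, the alkaline phosphatase of mineralizing cells, passed the adjusted test (log2 fold change 1.16, SE 0.17, adjusted p = 0.0326). That call was lost with Control replicate 1 or 2 or BMAd-DTA replicate 1, 4 or 6 left out (adjusted p = 0.0547 to 0.129 in edgeR) and with a skeletal muscle score as a covariate (0.0667). The sum over those markers was 3075 CPM in Control replicate 1, 11512 to 13196 CPM in the other Controls and 15617 to 36483 CPM in BMAd-DTA. Xist was read at 13810 to 20260 counts and 4 Y-linked genes together at 0 to 1 count in every library. That is the pattern of female RNA, while the study's figure legends for these bones name male mice.

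Compared per kilobase of exon, the level of Cebpa was the highest of the 9. Its level was 56.0 ± 4.60 RPKM (CPM divided by the exon length in kilobases, mean ± SD, n = 4) in Controls. Cebpb followed at 43.9 ± 2.24, Cebpd at 19.1 ± 3.42, Pparg at 16.9 ± 1.21 and Srebf1 at 16.5 ± 1.16 RPKM (n = 4). Far below came Zfp423 at 2.64 ± 0.67 and Klf15 at 2.29 ± 0.87 RPKM, then Prdm16 and Ppargc1a. Of the 8 steps of this order, 2 had ranges that did not meet over the 11 libraries, from Cebpb to Cebpd and from Srebf1 to Zfp423. Cebpa exceeded Cebpb in 10 of 11 libraries. Other neighbours that changed places were Pparg and Srebf1, with Pparg the higher in 3 of 4 Controls and in 1 of 7 BMAd-DTA libraries, and Zfp423 and Klf15, with Zfp423 the higher in 7 of 11 libraries. Cebpd exceeded Pparg in 2 of 4 Controls and in 7 of 7 BMAd-DTA libraries.

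**Figure D1:**
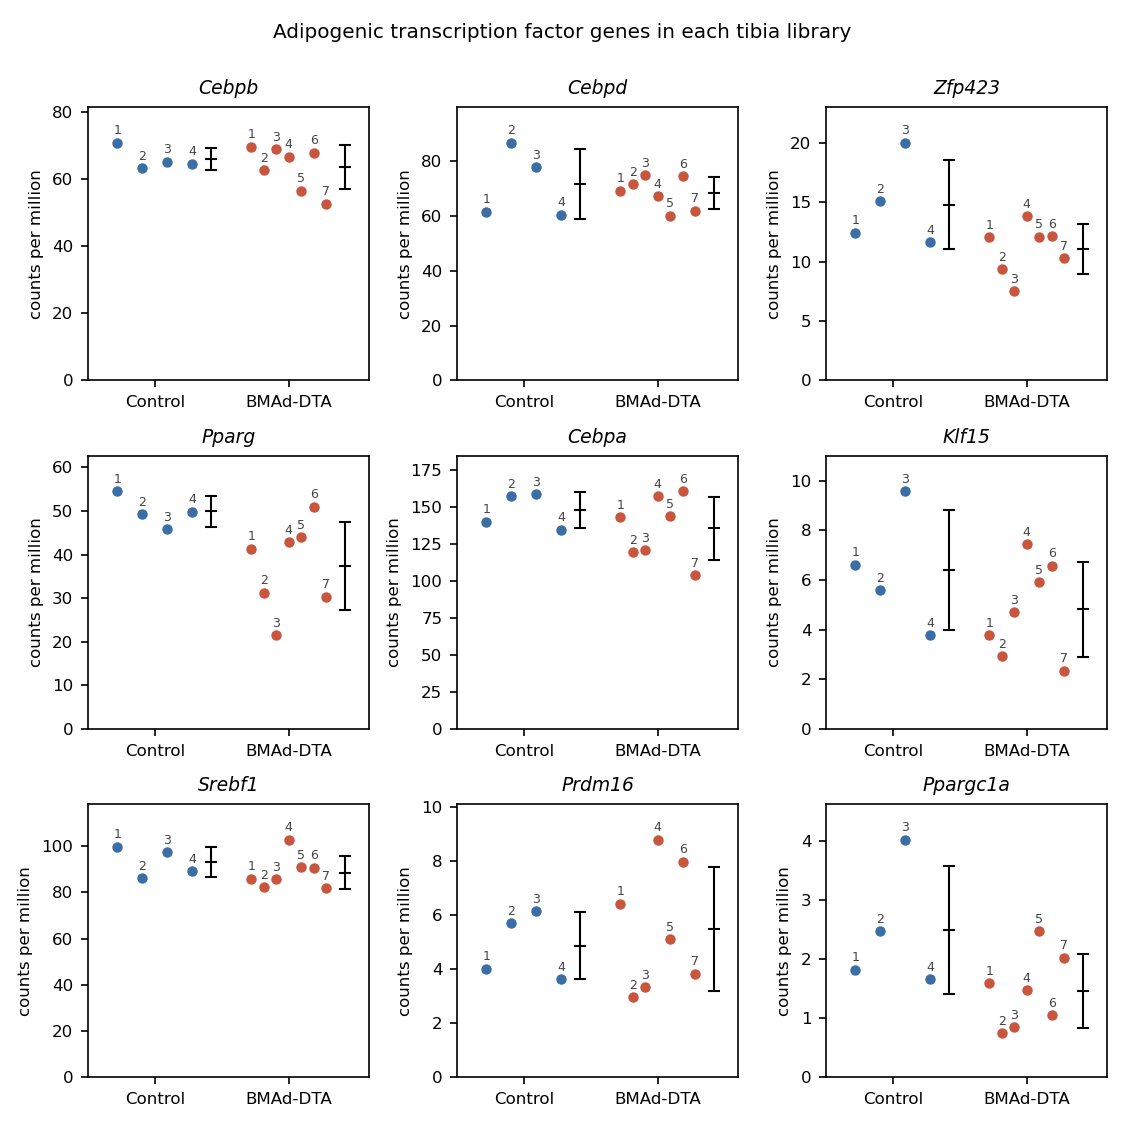
Level in CPM (vertical axis, from 0) of each regulator in every library, with Control in blue and BMAd-DTA in red. Numbers are replicates, and bars give mean ± SD (n = 4 Control and n = 7 BMAd-DTA). Pparg lay below every Control in 6 of 7 BMAd-DTA libraries, and for each of the 9 genes the groups overlapped.

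Cebpb, an early factor of adipogenesis that also acts in emergency granulopoiesis (gene ENSMUSG00000056501.3, mm10, chr2:167688915-167690418, plus strand, a single exon gene in the annotation used), had steady levels. Controls held 71.0, 63.4, 65.3 and 64.7 CPM (66.1 ± 3.36, n = 4). BMAd-DTA libraries ran from 52.8 through a median of 66.8 to 69.8 CPM (63.7 ± 6.64, n = 7). The groups overlapped, with 3 of 7 BMAd-DTA libraries below every Control. Its log2 fold change was -0.05 (SE 0.082, 95% interval -0.23 to 0.12, adjusted p = 0.801).

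The partner of Cebpb in the first wave, Cebpd (ENSMUSG00000071637.5, chr16:15887286-15891031, plus strand), was likewise close between groups. Controls were at 61.6, 86.8, 77.8 and 60.6 CPM (71.7 ± 12.8, n = 4), a wider spread than among the BMAd-DTA libraries, which ran from 60.2 through 69.3 to 74.9 CPM (68.6 ± 5.83, n = 7). All but 1 of the 7 lay within the Control range. Between groups its log2 fold change was -0.06 (SE 0.10, interval -0.29 to 0.16, adjusted p = 0.812), and it was 0.04 without Control replicate 2. Cebpd lies opposite to Spidr, and 8.06% of its stranded counts were on the opposite strand, which the strand-specific counting keeps apart.

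Zfp423, a zinc finger factor that marks committed preadipocytes (ENSMUSG00000045333.15, chr8:87661810-87959595, minus strand), had 12.5, 15.1, 20.03 and 11.7 CPM in Controls (14.8 ± 3.78, n = 4). Among BMAd-DTA libraries it ran from 7.55 through 12.1 to 13.8 CPM (11.1 ± 2.11, n = 7). The 3 lowest values of all, in BMAd-DTA replicates 2, 3 and 7, lay below every Control, and the other 4 fell inside the Control range. A log2 fold change of -0.42 (SE 0.17, interval -0.80 to -0.042) missed the adjusted test (adjusted p = 0.249, unadjusted p = 0.0319). Control replicate 3 was the highest Control library for Zfp423 and for muscle markers, and the log2 fold change was -0.24 without it. With a skeletal muscle score as a covariate it was -0.32.

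Pparg, the master regulator of fat cell differentiation (ENSMUSG00000000440.12, chr6:115360951-115490399, plus strand), was the regulator with the most BMAd-DTA libraries below the Controls. Controls were tightly placed at 54.6, 49.3, 45.9 and 49.8 CPM (49.9 ± 3.56, n = 4). BMAd-DTA replicates 1 to 7 held 41.4, 31.3, 21.5, 42.8, 44.0, 51.0 and 30.4 CPM (37.5 ± 10.1, n = 7). Thus 6 of 7 BMAd-DTA libraries were below every Control, a pattern that 3.81% of all genes reached, and only replicate 6 lay among the Controls. The spread was also wider, with a coefficient of variation of 27.0% in BMAd-DTA and 7.13% in Controls. The log2 fold change of -0.41 (SE 0.18, interval -0.81 to -0.020) did not pass the adjusted test (adjusted p = 0.277, unadjusted p = 0.0406). Over libraries left out in turn it lay between -0.50 and -0.31, so its direction did not rest on a single mouse. In RNA from whole bone, fewer fat cells and less Pparg RNA per cell cannot be told apart.

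C/EBP proteins are known to bind the Pparg promoter, so the stretch from 250 bases before to 50 after each RefSeq start (build GRCm38.p6) was read for the C/EBP half-palindrome TTGCNNAA on both strands. Of 13 windows belonging to 8 of the 9 genes, 2 held it, as did 10.8% of the 32851 windows of all genes. That share is near the background and is no result about the regulators. The windows belonged to Pparg and Zfp423, and 30 bases around the matches follow, with the match in capitals, to show the letters found.
Pparg, chr6:115421840-115421869, plus strand, match 215 bases before a downstream start of the gene: tgtaccaagtcTTGCCAAAgcagcagacag
Pparg, chr6:115422039-115422068, plus strand, match 16 bases before the same start: accaaccaatcTTTTGCAAgacatagacaa
Zfp423, chr8:87959708-87959737, minus strand, match 131 bases before the start: gcctgcaaactTTGCACAAaaatccggcaa
The second Pparg match is the motif read from the opposite strand, and the Zfp423 window held a further match 22 bases after the start. A match of letters is a description of the window and no measure of binding.

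Cebpa, the partner that sustains Pparg in mature fat cells and an essential factor of granulocyte precursors (ENSMUSG00000034957.10, chr7:35119293-35121928, plus strand), was at 140, 157, 159 and 135 CPM in Controls (148 ± 12.1, n = 4). BMAd-DTA libraries ran from 104 through 143 to 161 CPM (135 ± 21.2, n = 7). The 3 libraries below every Control were again replicates 2, 3 and 7, at 119, 121 and 104 CPM, while replicate 6 exceeded all Controls. Its log2 fold change was -0.12 (SE 0.11, interval -0.37 to 0.12, adjusted p = 0.636). Marrow holds many Cebpa-expressing myeloid cells beside its fat cells. Markers of granulocyte progenitors summed to 3933 to 5183 CPM in Controls and 3508 to 5964 CPM in BMAd-DTA, and the log2 fold changes of those 10 genes had a median of 0.02. For 12 neutrophil markers the median was -0.07, and none of either list passed the adjusted test. The part of such cells in the level of Cebpa was not tested.

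Klf15, a Krüppel-like factor that feeds into Pparg and the glucose transporter GLUT4 (ENSMUSG00000030087.11, chr6:90462576-90475238, plus strand), was low, at 6.61, 5.59, 9.57 and 3.79 CPM in Controls (6.39 ± 2.42, n = 4). BMAd-DTA libraries ran from 2.34 through 4.71 to 7.43 CPM (4.81 ± 1.91, n = 7), with 3 of 7 below every Control. Its log2 fold change of -0.41 equalled that of Pparg at 2 decimals, but the error was larger (SE 0.32, interval -1.09 to 0.28, adjusted p = 0.571). It was -0.14 without Control replicate 3 and -0.26 with the muscle score as a covariate.

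Srebf1, which drives lipogenic enzymes in fat and liver (ENSMUSG00000020538.15, chr11:60199089-60222581, minus strand, with the microRNA genes Mir6921 and Mir6922 inside it on the same strand), was at 99.9, 86.2, 97.5 and 89.1 CPM in Controls (93.2 ± 6.56, n = 4). BMAd-DTA libraries ran from 81.8 through 85.9 to 103 CPM (88.6 ± 7.21, n = 7). Replicate 4 was above every Control and 4 of 7 were below every Control, by small margins. This gave a log2 fold change of -0.07 (SE 0.071, interval -0.23 to 0.082, adjusted p = 0.674), the smallest standard error of the 9 genes.

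The thermogenic regulators were the scarcest of the 9 per kilobase of exon. Prdm16 (ENSMUSG00000039410.16, chr4:154316125-154636873, minus strand) held 4.02, 5.71, 6.15 and 3.63 CPM in Controls (4.88 ± 1.24, n = 4) and ran from 2.98 through 5.11 to 8.80 CPM in BMAd-DTA (5.50 ± 2.30, n = 7). It was the only 1 of the 9 with a positive log2 fold change, 0.17 (SE 0.30, interval -0.48 to 0.83, adjusted p = 0.83). BMAd-DTA libraries lay on both sides of the Controls, 2 below and 3 above all of them. Without BMAd-DTA replicate 4, the highest library, the log2 fold change was 0.02, and with the muscle score it was 0.34.

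Ppargc1a, the coactivator of mitochondrial biogenesis (ENSMUSG00000029167.13, chr5:51454250-51567726, minus strand), had the largest log2 fold change in size and the fewest counts, 13 to 68 per library. Controls were at 1.82, 2.47, 4.02 and 1.66 CPM (2.49 ± 1.08, n = 4). BMAd-DTA libraries ran from 0.745 through 1.48 to 2.47 CPM (1.46 ± 0.63, n = 7), and 5 of 7 were below every Control. The lowest value rested on 13 counts, with an exact 95% Poisson interval of 6.92 to 22.2 counts that covers counting error only. Its log2 fold change was -0.77 (SE 0.35, interval -1.52 to -0.011, adjusted p = 0.297, unadjusted p = 0.0472). Control replicate 3, the library with the most muscle markers, held the highest level, and without it the log2 fold change was -0.44. With the muscle score as a covariate it was -0.62. Genes annotated on the same strand overlap Ppargc1a, and pairs that fit more than 1 gene are left out of the counts.

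**Figure D2:**
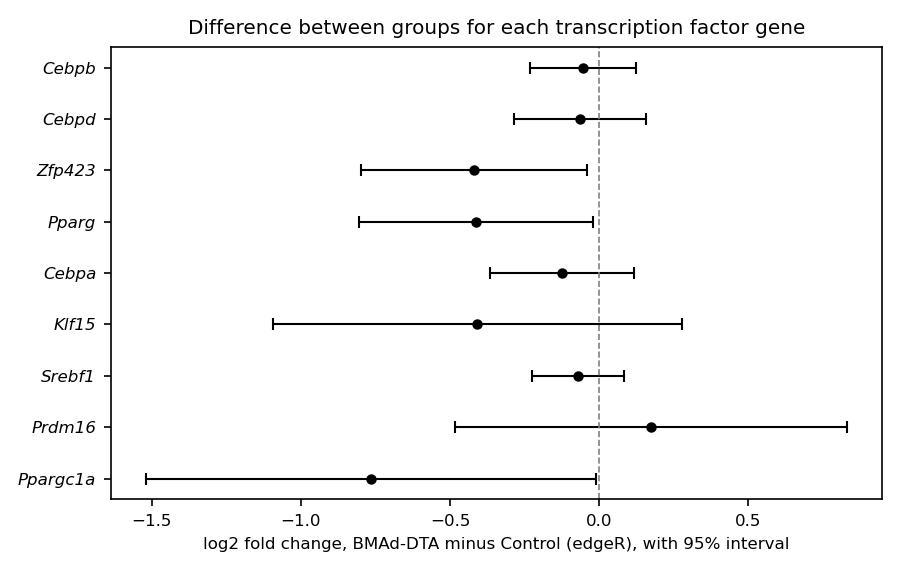
Log2 fold change of each regulator, BMAd-DTA minus Control (horizontal axis), from edgeR with its 95% interval. The dashed line marks 0. Intervals of Zfp423, Pparg and Ppargc1a end just below 0 without adjustment for the 16496 genes tested, and that of Ppargc1a reaches -1.52.

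Within the BMAd-DTA group the same libraries recurred at the low end. Of the 9 regulators, 5 (Zfp423, Pparg, Cebpa, Srebf1 and Prdm16) had their 3 lowest BMAd-DTA values in replicates 2, 3 and 7, another 3 shared 2 of those libraries, and Cebpd shared 1. How many of all genes share these 3 lowest libraries was not counted, so 5 of 9 is no result about the regulators. The same 3 libraries were lowest for Adipoq, the fat cell hormone adiponectin, between 7.19 and 10.2 CPM, against 67.3 to 115 CPM in the other BMAd-DTA libraries. Controls held 130, 184, 209 and 28.5 CPM of Adipoq (138 ± 79.9, n = 4), so that Control replicate 4 lay below 4 of the 7 BMAd-DTA libraries. Adipoq is the locus that carries Cre in every mouse, controls included. Plin1, the coat protein of lipid droplets, was lower in every BMAd-DTA library (11.4 to 73.3 CPM) than in any Control (73.8 to 123 CPM), with a log2 fold change of -1.30 and an adjusted p of 0.173. Replicates 2, 3 and 7 overlapped the other BMAd-DTA libraries in the sums of neutrophil, granulocyte progenitor and macrophage markers. They stood apart from those libraries for endothelial and marrow stroma markers. Endothelial markers summed to 758 to 829 CPM in them, to 1042 to 1080 CPM in the other BMAd-DTA libraries and to 952 to 1030 CPM in Controls. Marrow stroma markers summed to 3574 to 4041 CPM in them, to 5308 to 5658 CPM in the other BMAd-DTA libraries and to 3557 to 5297 CPM in Controls. The part of these cells in the levels of the regulators was not tested.

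**Figure D3:**
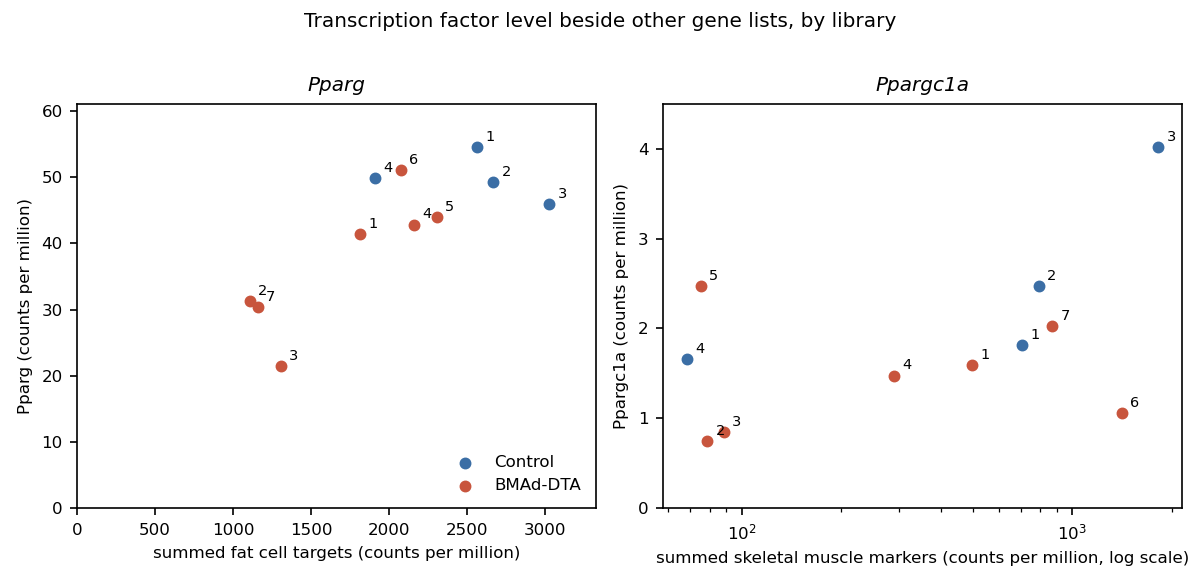
Left, Pparg (CPM) against the summed level of 22 fat cell target genes in each library. Right, Ppargc1a (CPM) against the summed level of skeletal muscle markers (log axis). Numbers are replicates. BMAd-DTA replicates 2, 3 and 7 were lowest on both axes at left, and at right Control replicate 3 was highest on both, whereas BMAd-DTA replicate 6 had 1413 CPM of muscle markers and 1.06 CPM of Ppargc1a.

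The genes that the regulators act on were compared next. Among 22 fat cell genes known as targets of PPAR gamma and C/EBP alpha, 19 had the lower mean in BMAd-DTA, and the median log2 fold change was -0.63. Of these, Retn, which encodes the adipokine resistin, passed the adjusted test. It held 6.77 to 9.87 CPM in Controls and 2.12 to 3.89 CPM in BMAd-DTA, a log2 fold change of -1.38 (SE 0.17, adjusted p = 0.0205). The call was lost in 4 of 11 fits with 1 library left out, those without Control replicate 1 or 2 or BMAd-DTA replicate 1 or 6 (adjusted p = 0.0515 to 0.0889 in edgeR). Those 4 fits called 0 genes of the whole table. Retn also passed with the muscle score as a covariate (adjusted p = 0.0472 in edgeR) and in DESeq2 (5.04e-10). DESeq2 called 4 of the 22 lower. At an unadjusted p under 0.05 in edgeR, 13 of the 22 were lower and 1 was higher. Over all genes tested, 16.4% passed that threshold and 8.53% were lower at it. Pdk4, a kinase that shuts off pyruvate oxidation and is also expressed in muscle, was at the upper end with 0.40 (SE 0.18, adjusted p = 0.307). The summed level of the 22 genes was 1909 to 3030 CPM in Controls and 1109 to 2306 CPM in BMAd-DTA, with 4 of 7 below every Control.

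Among 16 lipogenic genes regulated by SREBP-1, 14 had the lower mean, but the median log2 fold change was only -0.12 and edgeR called 0 of them (5 at an unadjusted p under 0.05, all lower, and 2 by DESeq2). Scd1, the desaturase that makes monounsaturated fatty acids, was the lowest at -1.08 (SE 0.39, adjusted p = 0.185) and the most abundant. It held 1592 to 2417 CPM in Controls and 369 to 1821 CPM in BMAd-DTA, with 6 of 7 below every Control. Fads1, a desaturase of polyunsaturated fatty acids, stood at the other end with 0.04 (SE 0.078, adjusted p = 0.853). Srebf1 itself, as given above, differed by -0.07.

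Of 18 genes of thermogenic fat and mitochondria, 13 were tested, with a median of -0.07 (0.02 without Control replicate 1) and 0 calls by edgeR or DESeq2 (1 at an unadjusted p under 0.05). Ucp1, Cidea, Elovl3 and Cpt1b had too few counts for the test, and Ucp1 and Elovl3 stood at 0 in at least 1 library. Cox7a1, a cytochrome oxidase subunit of muscle and brown fat, had the highest log2 fold change (0.48, SE 0.62, adjusted p = 0.762). Ndufs1, a subunit of respiratory complex I, had the lowest, with 62.9 to 71.9 CPM in Controls and 57.1 to 63.2 CPM in BMAd-DTA (-0.18, SE 0.055, adjusted p = 0.125).

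Relatives of the 9 regulators lay near 0. Of 17 tested relatives, 7 were higher and 10 lower, with a median of -0.04 and no call by edgeR or DESeq2 (1 at an unadjusted p under 0.05). Klf3, a repressor of fat cell formation that is also active in blood cells, was the lowest at -0.28 (SE 0.10, adjusted p = 0.183), and Klf2 the highest at 0.20 (SE 0.15, adjusted p = 0.57). The direct paralogs lay within narrow limits. Ppard differed by -0.07, Ppargc1b by 0.08, Srebf2 by 0.02, Zfp521 by 0.03, Cebpg by -0.04 and Cebpe, a factor of late granulocytes, by 0.04 on the log2 scale. The adjusted p of these 6 ran upward from 0.681. Ppara had too few counts for the test.

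Other transcription factors that favour adipogenesis gave 9 genes higher and 12 lower of 21 tested, with a median of -0.08. None passed in edgeR, 8 had an unadjusted p under 0.05 (2 higher and 6 lower), and DESeq2 called 1, Mlxipl. Mlxipl encodes ChREBP, the glucose-sensing partner of SREBP-1 in lipogenesis. Controls held 9.37, 5.95, 10.2 and 2.64 CPM of it (7.05 ± 3.47, n = 4), and BMAd-DTA ran from 1.43 through 3.30 to 4.81 CPM (2.99 ± 1.37, n = 7), the lowest in replicates 2, 7 and 3. Control replicate 4, which had little Adipoq and little muscle marker RNA, lay within the BMAd-DTA range. For Mlxipl the log2 fold change was -1.23 (SE 0.39, adjusted p = 0.137 in edgeR and 0.0279 in DESeq2). Egr2, an early inducer of Cebpb, stood at the other end with 0.70 (SE 0.24, adjusted p = 0.167).

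Of 16 tested factors that restrain adipogenesis, 10 were higher and 6 lower, with a median of 0.10. EdgeR called none (5 at an unadjusted p under 0.05, 3 higher and 2 lower), and DESeq2 called 2, both higher. Id3, an inhibitor of basic helix-loop-helix factors and a BMP target, was at 31.1, 31.0, 49.8 and 36.7 CPM in Controls (37.2 ± 8.80, n = 4). In BMAd-DTA it ran from 49.1 through 63.3 to 73.4 CPM (61.4 ± 8.14, n = 7), and 6 of 7 lay above every Control. Its log2 fold change was 0.73 (SE 0.14, adjusted p = 0.0675 in edgeR and 0.000134 in DESeq2). E2f4, a cell cycle repressor that also represses Pparg, was the lowest at -0.36 (SE 0.12, adjusted p = 0.147).

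Signals and receptors upstream of adipogenesis had 6 higher and 11 lower of 17, with a median of -0.11 and no call by edgeR (6 at an unadjusted p under 0.05, 4 higher and 2 lower). That median was -0.02 without Control replicate 2, -0.03 without Control replicate 3 and -0.001 with the muscle score as a covariate. Adrb3, the beta 3 adrenergic receptor of mature fat cells, was at 1.14 to 1.71 CPM in Controls and 0 to 0.704 CPM in BMAd-DTA, without overlap. Its log2 fold change was -1.70 (SE 0.54, adjusted p = 0.141 in edgeR and 0.0338 in DESeq2), on few counts. Wnt10b, a secreted Wnt that blocks Pparg and Cebpa, was at 4.46 to 7.74 CPM in Controls and 5.06 to 14.1 CPM in BMAd-DTA (0.57, SE 0.24, adjusted p = 0.249).

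**Figure D4:**
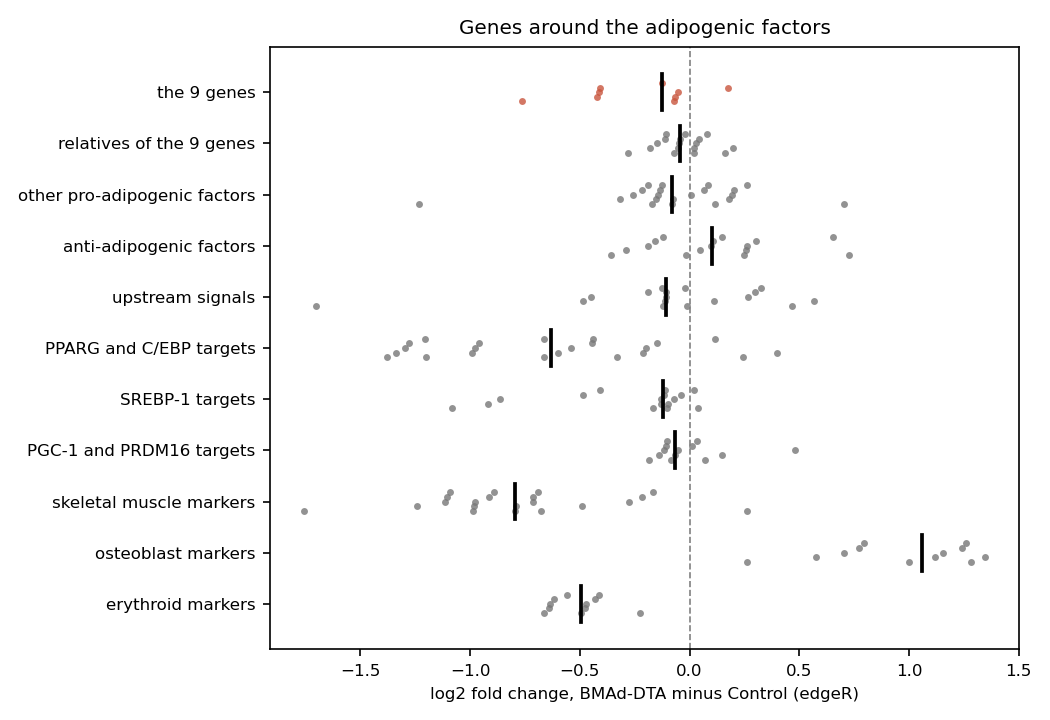
Log2 fold change of each tested gene (points; horizontal axis, BMAd-DTA minus Control, edgeR) for the 9 regulators (red) and for the lists around them (grey). Black bars are medians, which were -0.12 for the 9 regulators, -0.63 for the targets of PPAR gamma and C/EBP alpha and 1.06 for osteoblast markers.

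Genes whose level followed each regulator most closely over the 11 libraries were found by the root mean square difference of log2 CPM, after each gene was set to mean 0 and SD 1. The median difference between a regulator and the 12972 genes compared was 1.33 to 1.36 SD units. The nearest 3 were picked as the smallest of these differences, so they lie below that median by the way they were chosen. How close the nearest of so many unrelated genes would come over 11 libraries was not tested. The nearest to Zfp423 was Lepr, the leptin receptor of marrow stroma, at 0.26, followed by Cnnm1 and Six4 at 0.38. Lepr itself was at 210 to 341 CPM in Controls and 136 to 249 CPM in BMAd-DTA, with 5 of 7 below every Control (log2 fold change -0.48, SE 0.17, adjusted p = 0.182). The 12 stroma markers to which it belongs had a median of 0.02.

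Nearest to Pparg were B3gnt3 at 0.36, and Gpr182, a receptor of endothelial cells, and Slc27a6, a fatty acid transporter, both at 0.38. Cebpa was closest to Trarg1, a regulator of glucose transporter trafficking in fat cells, at 0.31, then to Fzd4 and Pxdn. Klf15 was closest to Rec114 at 0.25 and had Lep, which encodes leptin, at 0.33. The nearest 3 of Ppargc1a were Morc4, Pck1 and Dok4 at 0.48 to 0.50, of which Pck1 encodes a glyceroneogenic enzyme of fat. Srebf1 had Mmrn2, Napepld and Mrap at 0.43 to 0.49, and Prdm16 had Nid1, Arhgap27 and Rsad1 at 0.34 to 0.45.

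Cebpb was nearest to C920006O11Rik, Pgap3 and Tnfrsf1a at 0.45 to 0.54, and Cebpd to Zfp280b, Ighv1-55 and Vps72 at 0.44 to 0.49. Among the regulators themselves the most alike were Cebpa and Klf15 at 0.53, Klf15 and Srebf1 at 0.55 and Zfp423 and Ppargc1a at 0.59. Least alike were Cebpb and Ppargc1a at 1.54. The libraries share muscle, bone and marrow in varying amounts, so these distances describe the 11 libraries only.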

How the data were processed

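Whole distal tibiae were profiled by strand-specific, paired-end mRNA sequencing. The authors checked reads with FastQC 0.11.9, aligned them to mm10 with STAR and deposited raw counts of read pairs per gene, for each library (55401 genes) and as a merged table of 22600 genes. That table equals the read-strand column. The annotation release is not given in the sources used here. Positions and exon lengths came from GENCODE M21 on GRCm38, which 99.9% of identifiers matched.

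The main test was that of edgeR 4.0.16 in R 4.3.3 (filterByExpr, TMM, glmQLFit, glmQLFTest, two-sided, genotype only, all 11 libraries, Benjamini-Hochberg over 16496 genes). Standard errors are the log2 fold change over the square root of F. Pattern likeness used log2 CPM with a prior count of 2. Alternatives used DESeq2 1.42.0, limma 3.58.1, other scalings, filters and count columns, a muscle score covariate and each library left out. The edgeR, DESeq2 and limma-voom fits were tested on simulated counts. The labels number no replicates, so numbers follow accession order. No 2 libraries were alike within sampling noise (chi-square per gene at least 18.3). P-values set the difference between genotypes against the spread between mice of 1 series. The members and lists were chosen with earlier results of these data known. Named genes are the 9 members, list genes past the test, list extremes, direct paralogs and the 3 nearest genes of each member with a mean of at least 50 counts. Adipoq and Plin1 were added after their values were seen. Esrra, Klf1, Tcf7l2, Egfl7 and Robo4 were not analysed here.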

Additional observations from a re-analysis of the deposited data

Results flagged for a closer look

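Among the 18 groups of values tested (9 genes in 2 genotypes), 1 held a library far from the rest. Srebf1 was at 103 CPM in BMAd-DTA replicate 4, and its gap to the next library was 0.573 of the whole range of the 7 libraries. Chance flags about 1 in 20 such groups.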

How the results depend on the processing

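None of the 9 regulators was called under the 12 other settings or with any of the 11 libraries left out, and 3 were counted when the threshold was an unadjusted p under 0.05. The log2 fold change of Cebpd lay between -0.14 and 0.040 with 1 library left out, turning positive without Control replicate 2. The other 98 leave-one-out values and all 108 values under other settings kept their direction. The median of the muscle markers lay between -1.49 and -0.11 with 1 library left out. Without Control replicate 3, Zfp423 was at -0.24, Klf15 at -0.14 and Ppargc1a at -0.44. Unstranded counts gave 44.7 CPM of Cebpb and 131 CPM of Cebpa in Controls, and 44.0 CPM of Cebpb in BMAd-DTA. Over all genes, 13 were called, against 845 by DESeq2, 20 by limma-voom, 20 with RLE scaling, 32 with a robust fit and 3 with the muscle score. None was called without Control replicate 1 or 2 or BMAd-DTA replicate 1 or 6, and 292 without Control replicate 3. No paired analysis was run, since the labels give no pairing of Control with BMAd-DTA mice. Depth limits Ppargc1a most, with 13 counts in 1 library.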

Other observations

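Markers of other cell types were read in the same libraries. All 11 tested erythroid markers had the lower mean in BMAd-DTA, and their log2 fold changes had a median of -0.50 with 0 calls by edgeR (9 at an unadjusted p under 0.05, and 7 by DESeq2). Rhag, a blood group membrane protein, was lowest at -0.66 (SE 0.19, adjusted p = 0.117) and Alas2, which starts heme synthesis in red cells, was at -0.22 (SE 0.18, adjusted p = 0.590). The 12 B lineage markers were all at the higher mean, with a median of 0.37 and no call by edgeR (1 at an unadjusted p under 0.05, and 0 by DESeq2). That median was 0.18 without Control replicate 1 and 0.69 without Control replicate 4. Cd79a, of the B cell receptor, was at 107 to 279 CPM in Controls and 239 to 531 CPM in BMAd-DTA (0.66, SE 0.25, adjusted p = 0.207).

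Macrophage markers split evenly, 6 higher and 6 lower, with a median of 0.02, 0 calls by edgeR and 1 by DESeq2, which was higher. Marco, a scavenger receptor, was at 0.86 (SE 0.50, adjusted p = 0.418) and Adgre1, the F4/80 antigen, at -0.30 (SE 0.11, adjusted p = 0.209). Endothelial markers had a median of -0.07 over 10 genes with no call. Of the 12 stroma markers edgeR called 0 and DESeq2 called 1, Pdgfra. Pdgfra, a receptor of marrow stroma, was at 64.2 to 84.8 CPM in Controls and 76.2 to 121 CPM in BMAd-DTA. Its log2 fold change was 0.37 (SE 0.12, adjusted p = 0.136 in edgeR and 0.0498 in DESeq2), while Lepr of the same list had a negative log2 fold change.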
